A study of Mus musculus with 12 samples.

Results

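Broad H3K4me3 domains were built from peaks of at least 3000 bp for trimethylated lysine 4 of histone H3 in the embryonic mouse forebrain. They were chosen by width alone: every peak on chr1 to chr19 and chrX that spanned 3000 bp or more in any of the 4 peak lists was taken, and overlapping ones were merged. This selection gave 485 union domains, against 29777 separate intervals when all peaks of the 4 lists were merged. Of the union domains, 129 were wider than their widest single peak. CUT&Tag, which tethers a transposase to the histone mark through an antibody, was run on nuclei of the medial (MGE), lateral (LGE) and caudal (CGE) ganglionic eminence and the somatosensory cortex (CTX) of wild-type C57BL/6J embryos, dissected at E12.5 per the study's methods. No group carried a mutation or a treatment, and each region was dissected from several pooled embryos. There were 12 libraries, from 2 replicates per region, and the replicates were merged before peaks were called. Each region was therefore 1 list with no replicate error, and no difference between regions could be tested. Because width chose the domains, their widths, coverage and gene content are given as descriptions.

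H3K4me3 marks the start of most active genes, where it usually fills a short stretch on either side of the transcription start site (TSS). At a small number of genes it spreads for several kilobases, mostly into the gene, and such genes often encode the transcription factors that define a cell type. In the telencephalon these factors divide the tissue: Nkx2-1 and Lhx6 belong to the MGE, Dlx genes to all ganglionic eminences, and Emx1, Emx2, Pax6 and Fezf2 to the cortex, while Sox genes are shared.

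Stretches of 150 bases from 5 of these domains are printed to show the DNA that was covered in some lists and not in others. All are plus-strand sequence of GRCm38 from RefSeq, hold no annotated exon, and have CpG sites in capitals. The first pair comes from the domain of Sox1, a factor of neural progenitors, and the next from that of Lhx2, a cortical patterning factor. These were the widest factor domains that the MGE and CTX lists both broke into pieces and that had such exon-free stretches. In each pair the first stretch lies under the widest MGE peak of the domain and was covered in all 4 lists, and the second lies in the longest MGE gap and was covered in LGE and CGE but in neither MGE nor CTX.
Sox1 under the MGE peak, directly before the 5′ end of the gene (chr8:12395145-12395294): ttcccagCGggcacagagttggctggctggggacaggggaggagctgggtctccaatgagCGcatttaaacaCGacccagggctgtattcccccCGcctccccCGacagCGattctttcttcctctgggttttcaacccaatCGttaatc
Sox1 in the MGE gap, beyond the 3′ end of the gene (chr8:12400129-12400278): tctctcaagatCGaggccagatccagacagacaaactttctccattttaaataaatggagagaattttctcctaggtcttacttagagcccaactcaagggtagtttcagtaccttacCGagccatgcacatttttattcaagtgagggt
Lhx2 under the MGE peak, intron (chr2:38354915-38355064): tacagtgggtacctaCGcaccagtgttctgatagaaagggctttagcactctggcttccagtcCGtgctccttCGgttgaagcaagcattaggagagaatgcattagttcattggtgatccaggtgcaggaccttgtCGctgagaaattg
Lhx2 in the MGE gap, intron (chr2:38356103-38356252): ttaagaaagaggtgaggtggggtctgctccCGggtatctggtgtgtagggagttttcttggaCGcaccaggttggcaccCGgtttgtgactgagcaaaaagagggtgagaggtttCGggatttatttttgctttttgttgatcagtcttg
The covered Sox1 stretch held 7 CpG sites and the gap 2, while both Lhx2 stretches held 4.

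The other 3 stretches lie nearest the centre of domains whose coverage differed widely between lists. Nkx2-1 encodes the factor that specifies the MGE, Fezf2 a factor of deep-layer cortical neurons, and Prdm12 a factor known from sensory neurons.
Nkx2-1, intron (chr12:56535109-56535258): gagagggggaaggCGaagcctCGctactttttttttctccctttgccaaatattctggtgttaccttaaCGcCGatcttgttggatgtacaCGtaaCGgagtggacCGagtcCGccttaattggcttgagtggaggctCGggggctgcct
Fezf2, intron (chr14:12344197-12344346): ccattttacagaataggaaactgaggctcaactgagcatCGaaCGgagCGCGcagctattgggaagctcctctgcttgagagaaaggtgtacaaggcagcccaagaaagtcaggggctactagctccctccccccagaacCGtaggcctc
Prdm12, upstream of the gene, in an intron of Gm13425 (chr2:31639770-31639919): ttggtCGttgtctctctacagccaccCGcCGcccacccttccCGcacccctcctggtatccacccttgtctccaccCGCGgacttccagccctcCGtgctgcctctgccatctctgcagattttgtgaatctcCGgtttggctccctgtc
All 150 bases of the Nkx2-1 stretch were covered in LGE and CGE, 53 in MGE and 0 in CTX. The Fezf2 stretch was covered in full in LGE, CGE and CTX and not at all in MGE. The Prdm12 stretch was covered in LGE alone.

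The 4 lists contributed very unequally. MGE held 37 broad peaks among 25331, LGE 322 among 17277, CGE 446 among 17744 and CTX 51 among 21435. The median width over all peaks of a list followed the same order, with MGE at 563 bp, CTX at 701 bp, LGE at 1168 bp and CGE at 1240 bp. Sequencing depth and number of libraries also differed between regions per the study's methods and labels, and their part in these widths was not tested. MGE and CTX on one hand, and LGE and CGE on the other, were thus the pairs of lists with like peak widths.

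The union domains had a median width of 3491 bp, with quartiles of 3220 and 3909 bp, and 26 of them reached 5000 bp. At the edge of the rule, the narrowest broad peaks lay at Lmo1 (MGE, 3010 bp), Zfp36l2 (LGE, 3004 bp), Grin2b (CGE, 3000 bp) and Epha7 (CTX, 3001 bp). The widest peaks left out lay at Ppp2r3d (MGE, 2998 bp), Kdm2a (LGE, 2997 bp), a site with no coding TSS (CGE, 2999 bp) and Jade1 (CTX, 2997 bp). The widest domain, 8054 bp, spanned Islr2, a membrane protein of developing axons, and its neighbour Islr. It was followed by Nr2f2 (7349 bp), which encodes the CGE-enriched factor COUP-TFII, then Sox1 (6973 bp), Lhx9 (6737 bp) and Lhx2 (6385 bp). Bahcc1, Prdm16, Pou3f3, Barhl2 and Bcl11a completed the 10 widest, at 6326, 6262, 6246, 6191 and 6075 bp. Of these 10 domains, 7 held a factor of the forebrain lists described below, beside 55 of all 485.

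Broad peaks had a lower fold enrichment, the authors' ratio of signal over background, than the other peaks of their list. The median fold of broad peaks was 3.21, 3.17, 3.36 and 3.48 for MGE, LGE, CGE and CTX, against 4.59, 5.63, 5.81 and 5.08 over all peaks of these lists in that order. All 446 broad peaks of CGE and all 51 of CTX lay below the median fold of their list, as did 321 of 322 in LGE and 36 of 37 in MGE. In this file format the value is averaged over the length of the peak, so it does not give the height of the summit. The median −log10 q, the deposited measure of a peak's significance, was higher for broad peaks in each list, at 10.9, 40.7, 84.9 and 13.98 in MGE, LGE, CGE and CTX, against 5.19, 40.0, 79.4 and 8.57 over all peaks.

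Most domains were broad in LGE and CGE together. These lists shared 236 broad domains that no other list held, while 151 were broad in CGE alone, 29 in LGE alone and 7 in CTX alone, and no domain was broad in MGE alone. Another 20 were broad in LGE, CGE and CTX, 16 in MGE, LGE and CGE, and 18 in all 4 lists. Nearly every domain carried some H3K4me3 everywhere: 467 of 485 overlapped a peak in each of the 4 lists, and 18 lacked a peak in at least 1.

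A domain that was not broad was more often in pieces than under 1 narrower peak in MGE and CTX. The reverse held in LGE and CGE. In MGE, 258 domains were broken into 2 or more narrower peaks, 184 held 1 narrower peak and 6 held none. In CTX, 230 were broken up, 188 held 1 narrower peak and 16 held none. LGE broke up 38 domains and held 1 narrower peak at 122, and CGE broke up 1 and held 1 narrower peak at 38. The median share of a domain's bases under peaks was 54.8% for MGE, 95.2% for LGE, 100% for CGE and 54.4% for CTX. MGE and CTX broke up many domains together, 178 in all. Gaps inside broken domains were short, with a median of 712 bp among 343 gaps in MGE and 748.5 bp among 294 in CTX. Of these gaps, 94 in MGE (27.4%) and 88 in CTX (29.9%) contained an annotated TSS.

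**Figure D1:**
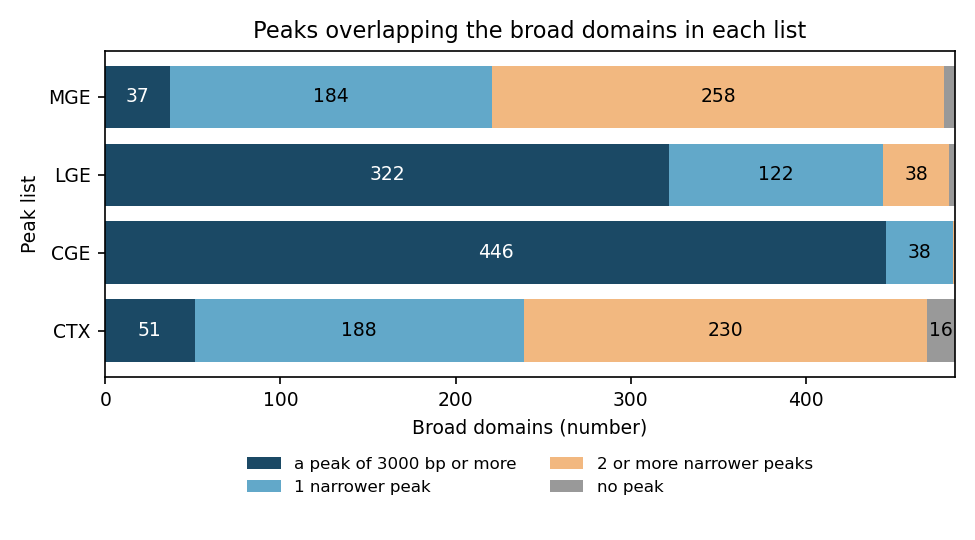
Number of broad domains (horizontal axis) in each peak list (vertical axis) by the peaks that overlapped them: a peak of at least 3000 bp, 1 narrower peak, 2 or more narrower peaks or none. MGE and CTX held most domains as narrower or broken peaks (258 and 230 broken), and CGE held 446 of 485 as broad peaks.

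The domains reached into their genes. In 305 domains with 1 protein-coding gene and its 5′ end inside, the domain extended a median of 625 bp upstream and 2848 bp downstream of that end, and 280 (91.8%) reached further downstream. Narrower CGE peaks showed the same lean, with 92.0% of 8806 reaching further downstream, a median of 336 bp upstream and 968 bp downstream. The share was close to that of the broad domains. MGE and CTX peaks covered the start of the gene more often than its downstream part. At the 5′ end itself, MGE peaks covered 83.3% of the 305 genes, LGE peaks 93.4%, CGE peaks 94.8% and CTX peaks 82.3%. At 2000 bp into the gene these shares were 30.8%, 73.4%, 83.9% and 29.5%, where 85.9% of the positions still lay in the domain.

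**Figure D2:**
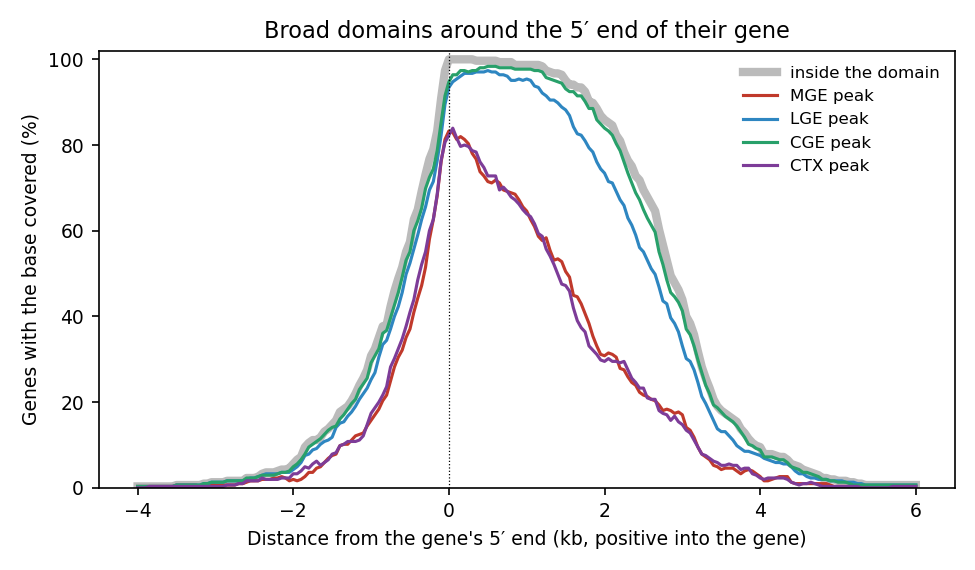
Share of 305 genes (vertical axis, %) whose base at a given distance from the 5′ end (horizontal axis, kb, positive into the gene) lay in the domain (grey) or under a peak of each list (coloured lines). LGE and CGE followed the domain into the gene, while MGE and CTX fell to 30.8% and 29.5% at 2 kb.

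A TSS of 481 protein-coding genes lay in a domain, which is 2.21% of the 21755 annotated on these chromosomes, and a TSS of 668 genes of any type, which is 1.24%. By list, broad peaks held a TSS of 0.175% (MGE), 1.51% (LGE), 2.03% (CGE) and 0.244% (CTX) of coding genes. There was 1 coding gene in 395 domains, more than 1 in 43, a noncoding TSS alone in 25 and no TSS in 22.

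Of the 18 domains broad in all 4 lists, 1 held a factor of the forebrain lists described below, beside 55 of all 485. The genes of these 18 were named after their values were seen where they were not at the widest peaks of a list. Among them were Jag1, a ligand of Notch receptors, Fat4, an atypical cadherin, Igf1r, the receptor of insulin-like growth factors, Efna5, a guidance ligand, Fzd8, a Wnt receptor, and Adgrg1, an adhesion receptor of neural progenitors. They also held the transcription factors Mycn, Jun, Mxi1, Patz1, Hivep2 and Sox4, the chromatin proteins Kmt2e and Phf12, and Mex3b, Anp32a, Irf2bpl and the neighbours Plekhn1 and Noc2l. Sox4, a factor of newborn neurons, was the forebrain factor among them. Its domain, chr13:28950517-28953983, held peaks of 3320, 3251, 3312 and 3139 bp in MGE, LGE, CGE and CTX. By the choice of the domains none of the 4 could be under 3000 bp.

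At Jag1 the peaks measured 3330, 3329, 3672 and 3359 bp in the same order of lists. At Mycn, which drives progenitor growth, they measured 3669, 3344, 3345 and 3080 bp, and MGE was the widest. Mex3b, an RNA-binding protein, had the widest peak of both the MGE and the CTX list, 4140 and 4222 bp, beside an LGE peak of 4434 bp and a CGE peak of 4423 bp. These 18 domains were rich in CpG sites, with a median of 7.34 per 100 bases over the 18, against 5.40 over all 485 and 4.53 over the 151 broad in CGE alone.

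Transcription factors of forebrain identity were frequent in the domains. Of a list of 133 such factors, chosen with earlier results of these data known, 54 (40.6%, 95% Wilson interval 32.6 to 49.1% for counting error only) had a TSS in a domain, beside the 2.21% of all coding genes. They fell in 55 domains, since Lhx9 had 2. The share was 21 of 36 for factors shared across the telencephalon and its progenitors, 18 of 55 for ventral factors and 15 of 42 for dorsal factors. Factor domains were wider, with a median of 4101 bp against 3447.5 bp for the 430 others, and 31 of 55 (56.4%) reached 4000 bp against 78 of 430 (18.1%). Of the 133 factors, 128 had a TSS under some peak of at least 1 list, so most of the 79 factors outside the domains had narrower peaks and not an unmarked TSS.

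Before the regional values, the lists were read against the factors that define each region. Nkx2-1 and Lhx6 were covered in MGE and had no peak in their domains in CTX, and Fezf2 and Emx1 were covered more in CTX than in MGE. The LGE and CGE lists covered the defining factors of other regions as well. In LGE 77.1% of the Nkx2-1 domain was covered and in CGE 100%. The cortical Emx1 domain was covered at 86.5% in LGE and 89.5% in CGE. The Nkx2-1 domain was drawn from its CGE peak alone, so the width rule fixes the 100%. The Emx1 domain was drawn from LGE and CGE peaks alone, so the rule fixes its high coverage in these lists. In this bulk assay a share of nuclei with the mark and the amount of mark per nucleus cannot be told apart.

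Several ventral factors of GABAergic neurons were covered more in MGE than in CTX, although the ventral list as a whole was split evenly. The Nkx2-1 domain, chr12:56533024-56536827, held 2 MGE peaks that covered 80.05%, 1 LGE peak of 2934 bp, a CGE peak of 3804 bp and no CTX peak. Lhx6, which acts downstream of Nkx2-1 in MGE interneurons, was covered at 49.0%, 55.8%, 100% and 0% in MGE, LGE, CGE and CTX. Both were broad in CGE alone, so the widest peak at these MGE factors was in the CGE list.
Sp9, a factor of striatal and interneuron precursors, was covered at 78.6%, 97.5%, 100% and 0% in MGE, LGE, CGE and CTX. Dlx1, which promotes GABAergic fate, was covered at 52.9%, 98.3%, 99.7% and 32.1%. Dlx5, a related homeobox gene, was covered at 59.3%, 93.4%, 100% and 21.03%, and its neighbour Dlx6 at 27.3%, 56.2%, 100% and 8.89%. All 4 of these genes were covered least in CTX.
Not every ventral factor followed this order. Meis2, a factor of LGE-derived neurons, was covered at 31.1% in MGE and 32.1% in CTX, against 99.6% in LGE and 97.8% in CGE. Foxp1, a factor of striatal and cortical neurons, was broad in CTX alone, with peaks of 2628, 2663, 2757 and 3150 bp in MGE, LGE, CGE and CTX, so that the 3 narrower ones were not far below the limit. Of the 18 ventral factor domains, 9 were covered more in MGE and 9 more in CTX, with medians of 53.1% and 31.3%.

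Most dorsal factors were covered more in CTX. Of 16 dorsal factor domains, 12 were covered more in CTX and 4 more in MGE, with medians of 52.1% in CTX and 29.3% in MGE, against 55.5% in both lists over the 430 other domains. Fezf2, chr14:12342642-12346546, held a single MGE peak of 180 bp that covered 4.61%, while the LGE, CGE and CTX peaks spanned 3574, 3905 and 3442 bp, as the intron stretch printed above shows at its centre. Emx1, expressed by cortical progenitors, was covered at 12.8% in MGE and 55.4% in CTX. Dmrta2, a regulator of cortical patterning, was covered at 9.38% in MGE and 61.0% in CTX.
Emx2, which sets area identity in the cortex, was covered at 27.8%, 98.9%, 100% and 52.1% in MGE, LGE, CGE and CTX. Pax6, a factor of cortical radial glia, was covered at 30.8%, 92.3%, 100% and 52.1%. Lhx2 was covered at 36.8%, 89.1%, 100% and 59.4%, in 5 pieces in MGE and 4 in CTX. These 3 domains were drawn from LGE and CGE peaks alone, so the width rule fixes their high coverage in these lists.
Barhl2 and Lhx9, regulators of diencephalic and medial cortical neurons, had their widest peaks in CGE, at 6191 and 6737 bp. Barhl2 was covered at 5.98% in MGE, 76.2% in LGE and 10.7% in CTX, and the wider Lhx9 domain at 17.7%, 34.6% and 25.9%. Ebf1, a ventral-list factor of striatal neurons, was likewise broad in CGE alone, with 8.49%, 54.9% and 11.9% covered in MGE, LGE and CTX. The 4 dorsal domains covered more in MGE than in CTX were those of Zbtb20 (68.4% and 28.9%), Ebf2 (18.2% and 8.33%), Rorb (46.5% and 45.1%) and Cux1 (94.6% and 94.3%).

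Of the 21 domains of factors shared across the telencephalon, 12 were covered more in MGE and 9 more in CTX, with medians of 51.7% and 56.3%. Sox1, chr8:12395000-12401972, held the widest peak of the LGE list, 6718 bp, and a CGE peak of 6911 bp. Its widest peaks in MGE and CTX were 2104 and 2627 bp.
Six3, an anterior forebrain factor, differed widely between MGE and CTX, with broad peaks of 3307, 3092 and 3398 bp in MGE, LGE and CGE and a lone CTX peak of 245 bp. Zeb2, which acts in interneuron migration, was broad in the same 3 lists, with 2775 bp in CTX. Otx1, a factor of cortical progenitors, was covered at 13.0% in MGE and 54.1% in CTX. Nr2f2 was covered at 26.8%, 61.0%, 94.5% and 23.7% in MGE, LGE, CGE and CTX, and its domain lay inside the gene, over internal start sites. Its relative Nr2f1 was covered at 50.1%, 96.0%, 83.6% and 40.3%. The Nr2f1 domain lay mostly upstream, reaching 4477 bp before the 5′ end of the gene and 314 bp beyond it. Over an Nr2f1 TSS the widest peaks were 816, 4598 and 944 bp in MGE, LGE and CGE, and CTX held none.
Pou3f2, a POU factor of cortical and ventral progenitors, was covered at 48.6%, 99.8%, 99.5% and 59.3% in MGE, LGE, CGE and CTX. Pou3f3 was broad in CGE (5242 bp) and CTX (3348 bp), with narrower peaks of up to 2377 bp in LGE and 1693 bp in MGE. Zic1 shared a domain with Zic4 that was broad in LGE alone, at 3901 bp, with widest peaks of 2139, 1516 and 2188 bp in MGE, CGE and CTX. Sp9, Six3, Zeb2, Otx1, Dmrta2, Cux1, Rorb, Ebf2 and Prdm12 were named after their values were seen.

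**Figure D3:**
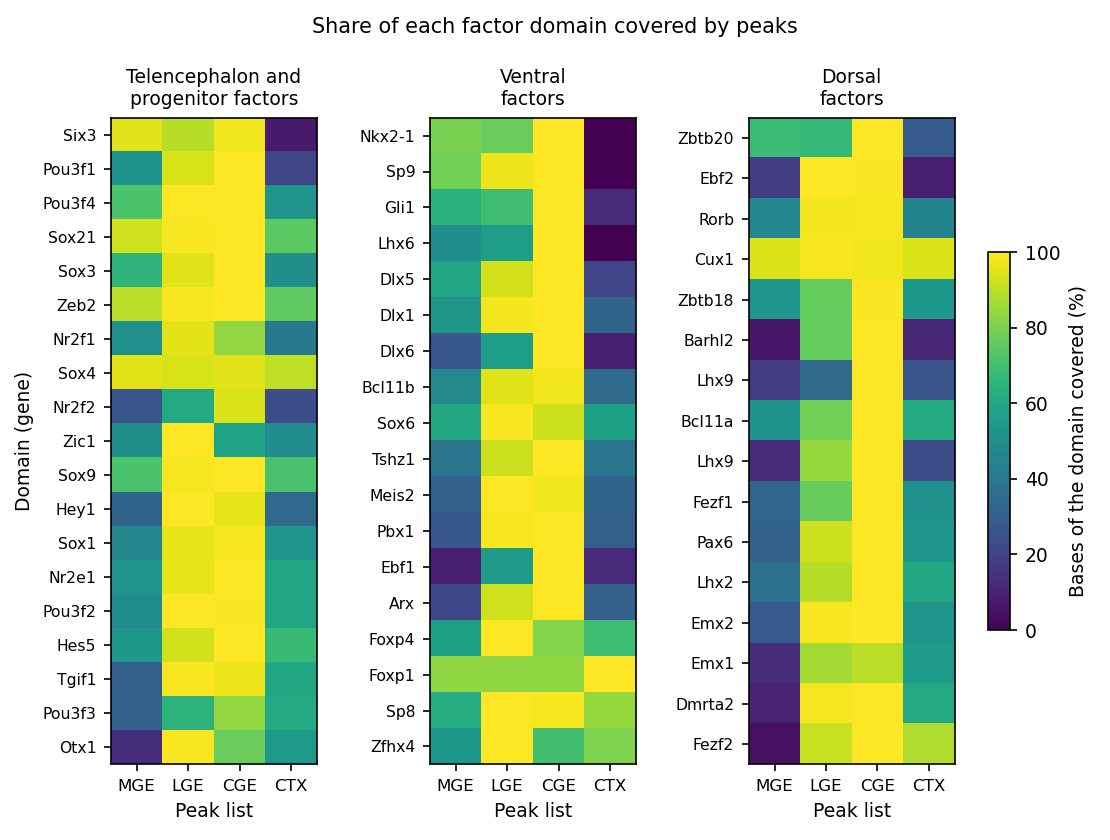
Share of bases covered by peaks (colour, %) in the 4 lists (columns) for 53 of the 55 domains with a forebrain factor (rows), sorted within each list of factors from more covered in MGE to more covered in CTX. Six3, Nkx2-1, Sp9 and Lhx6 sit at the MGE end and Fezf2, Dmrta2, Otx1 and Emx1 at the CTX end. LGE and CGE, whose broad peaks drew most domains, covered most of them nearly in full.

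Some regional factors had no domain. Over the TSSs of Lhx8, a factor of MGE cholinergic neurons, the widest peaks of MGE, LGE and CGE were 1043, 665 and 1020 bp, and CTX held none. At Dlx2 the widest peaks were 1293, 2734, 2758 and 1128 bp in MGE, LGE, CGE and CTX, and at Gsx2, a factor of LGE progenitors, 1910, 2189, 2209 and 356 bp. The proneural gene Neurog2 was widest in CTX, at 2169 bp. The cortical factors Eomes and Tbr1 were widest in CGE, at 2878 and 2945 bp. In CTX the widest peak over a TSS of Eomes was 1699 bp, and Tbr1 had none there or in MGE. Sox2, a stem cell factor, ranged from 1946 bp in CTX to 2562 bp in CGE. Each was below the limit in all 4 lists.

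Over all 485 domains, MGE and CTX coverage differed little in the middle, with a median difference of 0.40 percentage points and 382 domains within 20 points. MGE exceeded CTX by at least 30 points at 34 domains, 8 of them factor domains. CTX exceeded MGE by that much at 21, 4 of them factor domains. Factor domains were 55 of all 485. Beside Six3, Nkx2-1, Sp9 and Lhx6, the MGE side held Slc32a1, the vesicular transporter that loads GABA, with 75.3% in MGE and 0% in CTX. It also held the glutamate receptor gene Grik3 (73.5% and 0%), the kinase gene Mapk10 (73.0% and 4.46%) and Gli1, a target of Sonic hedgehog signalling (63.9% and 12.3%). The CTX side held Zic5 (10.7% in MGE and 100% in CTX), Nfatc4 (15.5% and 100%), the activin subunit gene Inhbb (27.6% and 99.9%) and the adhesion gene Alcam (15.3% and 79.1%). The Zic5 and Nfatc4 domains were drawn from their CTX peaks alone, and broad CTX peaks also helped draw those of Inhbb and Fezf2. Broad MGE peaks helped draw those of Six3 and Slc32a1. At these domains the width rule fixes the high coverage in the list named. Grik3, Mapk10, Inhbb and Alcam were named after their values were seen.

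LGE and CGE coverage cannot be compared independently of the rule, since 446 broad CGE peaks and 322 broad LGE peaks drew the domains, 151 of them from CGE alone and 29 from LGE alone. CGE exceeded LGE by at least 30 points at 75 domains and LGE exceeded CGE at 10, and the median of LGE minus CGE was -3.82 points. CGE peaks were also the wider ones over the whole list, and the part of this in the difference was not tested. The LGE side held Prdm12 (100% in LGE and 10.9% in CGE), Apela, which encodes an embryonic peptide hormone (100% and 11.2%), Zic1 with Zic4 (100% and 58.2%) and the imprinted gene Mest (100% and 63.4%). The CGE side held Ddn (14.1% in LGE and 100% in CGE), Lhx9, Pdgfra, a receptor of oligodendrocyte precursors (31.5% and 100%), and the immediate early gene Egr3 (39.1% and 100%). The broad LGE peak at Prdm12 had a −log10 q of 4.05, the lowest among broad LGE peaks, whose median was 40.7. Apela, Mest, Ddn, Pdgfra and Egr3 were named after their values were seen.

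**Figure D4:**
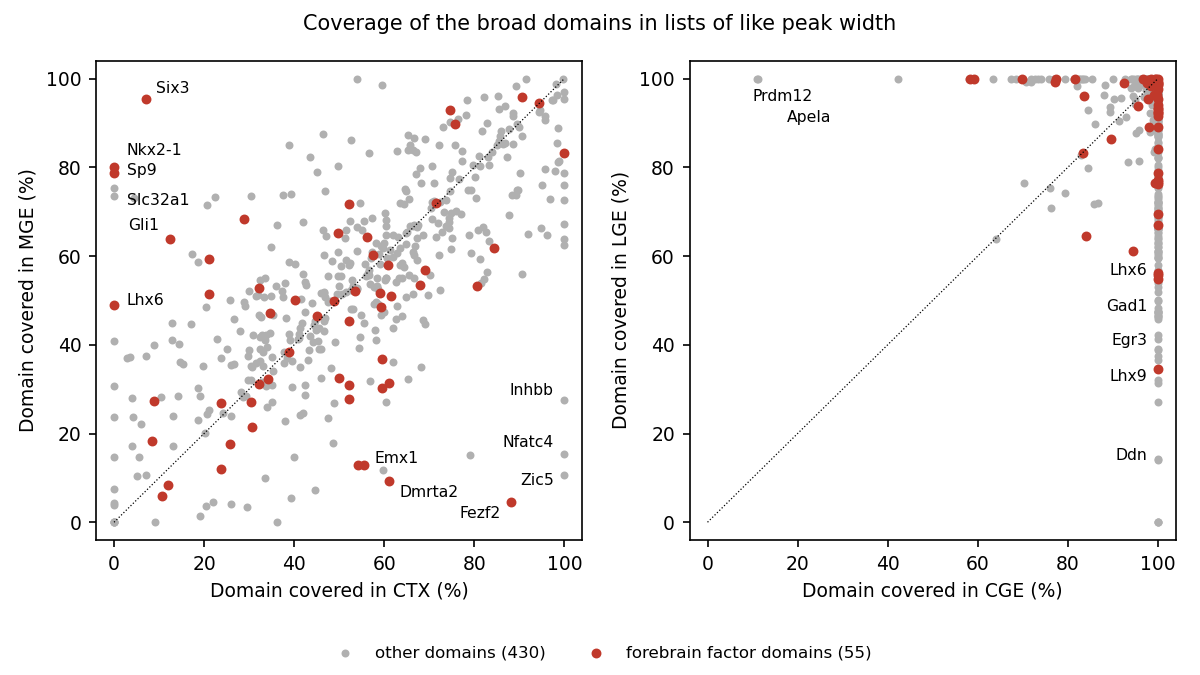
Share of each of 485 domains covered by peaks (%, both axes), for MGE against CTX (left) and LGE against CGE (right), with forebrain factor domains in red and the line of equal coverage dotted. Six3, Nkx2-1, Sp9, Slc32a1 and Lhx6 lie above the line and Fezf2, Zic5, Nfatc4 and Inhbb below it on the left, and most domains lie at 100% in CGE on the right.

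A width limit in base pairs treats lists of different peak width unequally, so the 500 widest peaks of each list were also taken. These held a TSS of 2.36% (MGE), 2.33% (LGE), 2.27% (CGE) and 2.37% (CTX) of coding genes. Of the 133 forebrain factors, MGE held 35 under such a peak, LGE 59, CGE 52 and CTX 38. Dorsal factors numbered 4 in MGE and 14 in CTX, and all 4 of MGE were also among those of CTX. The 10 found in CTX but not in MGE included Emx2, Lhx2, Fezf1, Fezf2, Neurog2, Bcl11a, Sox5, Tcf7l1 and Tfap2c. Ventral factors numbered 14 in MGE and 9 in CTX, and the 8 found in MGE but not in CTX included Dlx1, Olig2, Gli1, Satb1, Sox6 and Tox2. The 3 found in CTX but not in MGE were Foxp4, Gli2 and Pbx3. LGE held 17 of 42 dorsal and 18 of 55 ventral factors, and CGE held 16 and 17. The counts of the classes were close in these lists, but the dorsal list is shorter, so its share was the larger. The factors present in all 4 were Cux1, Meis2, Nr2e1, Pou3f2, Sox1, Sox4, Sox9, Zbtb18 and Zeb2.

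**Figure D5:**
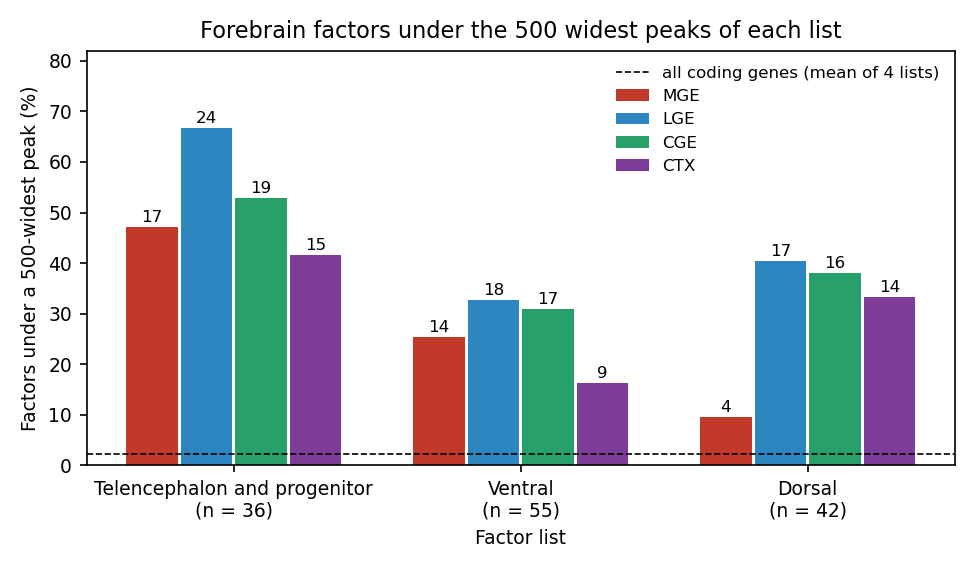
Share of each list of forebrain factors (vertical axis, %, counts above the bars) with a TSS under one of the 500 widest peaks of MGE, LGE, CGE or CTX (bars), for telencephalon and progenitor, ventral and dorsal factors (horizontal axis). The dashed line is the mean share of all coding genes, and MGE holds 4 of 42 dorsal factors against 14 in CTX.

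Pathway counts are read beside the 2.21% of all coding genes in domains, or 3.58% of those with a TSS under any peak. Of 22 Notch pathway genes 7 were in domains (31.8%): the receptor Notch1, the ligands Dll1 and Jag1, the modifiers Lfng and Mfng and the targets Hes5 and Hey1. Notch1 held peaks of 2406, 3241, 3229 and 2393 bp in MGE, LGE, CGE and CTX, Dll1 of 2553, 3628, 4094 and 2519 bp, and Hes5 was covered at 53.5%, 93.2%, 100% and 67.8%. The Sonic hedgehog pathway had 3 of 15 genes in domains, namely the receptor Ptch1 and the regulators Gli1 and Sufu. The Wnt pathway had 6 of 26, namely the ligand Wnt7b, the receptor Fzd8, the kinase Gsk3b, the secreted modulators Sfrp1 and Sfrp2, and Rspo3. Wnt7b was broad in CGE alone (5387 bp), with widest peaks of 909, 1676 and 1990 bp in MGE, LGE and CTX.

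Genes of neuronal differentiation accounted for 8 of 24 members: Tubb3, Rbfox3, Nrxn3, Mapt, Celf4, the GABAergic genes Gad1 and Slc32a1, and Slc17a6, a glutamate transporter. Gad1, which makes GABA, was covered at 37.0%, 47.5%, 100% and 2.92% in MGE, LGE, CGE and CTX. Slc17a6 was covered at 3.66%, 72.2%, 100% and 20.3%, and Nrxn3, a synaptic adhesion gene, at 23.7%, 97.2%, 99.3% and 4.31%. Radial glia genes had 2 of 14, Nes and Hes5, and chromatin regulators 5 of 26, Kmt2a, Kmt2d, Arid1a, Arid1b and Tet3. None of 30 ribosomal protein genes, 15 housekeeping genes, 26 posterior and non-neural regulators or 24 markers of endothelial, blood, microglial and mesenchymal cells lay in a domain. All 30 ribosomal protein genes had a peak over a TSS in every list, whereas 10 of the posterior regulators and 8 of the other-cell markers had one in any list.

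Grouped by RefSeq description, the classes above the 2.21% of coding genes included 7 of 19 SRY-box genes, all 4 class III POU genes (Pou3f1 to Pou3f4) among 16 POU genes, 21 of 222 homeobox genes and 5 of 17 Kruppel-like factors. Cell-surface families included 4 of 8 ephrins, 6 of 27 adhesion G protein-coupled receptors, 3 of 11 plexins and 7 of 68 protocadherins. Kinases, at 21 of 674 (3.12%), and solute carriers, at 6 of 387 (1.55%), were nearer the share of all coding genes. None of 1458 olfactory and vomeronasal receptors lay in a domain, and only 3 had a TSS under a peak of any list.

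Domains without a TSS mostly lay beside or inside a gene. Of 22, 11 were within 2 kb of a coding TSS, 18 within 10 kb, and 16 overlapped the body of a coding gene. The widest, chr1:42684170-42688322 (4153 bp), lay 7446 bp from the nearest TSS of Pou3f3 and was covered at 42.4%, 69.3%, 100% and 38.9% in MGE, LGE, CGE and CTX. The next 4 lay at Tchh (4098 bp), Shank1 (3990 bp), Bcor (3932 bp) and Zfhx3 (3903 bp), broad in CGE alone except at Shank1, which was broad in LGE alone. The Bcor domain lay 5140 bp from its TSS and the Zfhx3 domain 476 bp. Among the domains with a noncoding TSS alone, the widest broad in CGE alone was that of Mir137, a neuronal microRNA gene, at 5104 bp, covered at 40.0% in MGE, 60.8% in LGE and 8.95% in CTX. Domains rarely lay together: 33 of 485 fell in 16 groups of neighbours within 50 kb, among them Dlx5 with Dlx6 and Sox1 with the overlapping transcript Sox1ot.

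The width rule did not use the DNA sequence. In a fixed window of 1.5 kb on each side of the 5′ end, genes in domains had a median of 5.13 CpG sites per 100 bases, against 3.37 for 12968 genes with a TSS under narrower peaks and 0.90 for 8306 genes without one. The quartiles of the first 2 sets overlapped, at 3.57 to 6.43 and 2.50 to 4.43. Inside the domains, the bases that MGE peaks covered held 6.87 CpG sites per 100 bases and those they missed 3.79. For CTX the values were 7.16 and 3.53 and for LGE 5.64 and 3.47. The covered part was richer in CpG in 426 of 476 partly covered domains in MGE, 420 of 458 in CTX and 331 of 420 in LGE. Neighbouring bases are not independent, and since covered parts lie nearer the 5′ end, position and CpG content cannot be told apart here. Gene length did not separate the sets by its median, 29094 bp for genes in domains and 26136 bp under narrower peaks, but the upper quartiles were 117254 and 63402 bp.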

How the data were processed

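H3K4me3 CUT&Tag was performed on MGE, LGE, CGE and CTX nuclei in 2 replicates per region and 12 libraries, in which a further number in a title was taken as a repeat run of one replicate. The shared nuclei protocol also describes pooling equal numbers of nuclei of the regions, and the libraries are labelled by single regions and were treated as such. The authors aligned reads to GRCm38 with Bowtie2, removed blacklisted regions and duplicates (Picard), merged replicates (SAMtools) and called broad peaks with MACS, whose version, threshold and control are not given in the sources used here. The deposited lists give each peak's position, its fold enrichment (a ratio over background, averaged over the peak by the peak caller), its −log10 q and a score. The score that the authors deposited was 10 times the −log10 q, cut to a whole number, and the −log10 p column was not used. Read depth behind single peaks is unknown.

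Peaks on chr1 to chr19 and chrX with end minus start of at least 3000 bp were merged where they overlapped by 1 bp or more, and coverage was the share of domain bases under peaks of a list. Genes and all annotated TSSs came from GENCODE M21, and sequences and descriptions from RefSeq GRCm38.p6. The interval code was tested on simulated data (Python 3.11.15, pandas 2.3.3, pysam 0.24.0, with Wilson intervals from scipy 1.17.1). No test was run, since each region is 1 merged list. The width rule, gene lists and members were chosen with earlier results of these data known. Genes were named if they were regional factors of a fixed list, forebrain factors in domains broad in all 4 lists or in 1 alone, at the widest domains or peaks or at the edge of the rule, or on the pathway lists. Others are said to be named after their values were seen. Alternatives changed the width limit, joined peaks within 1 kb, raised the −log10 q minimum to 2, took the 500 widest peaks, dropped chrX, and changed the TSS and overlap rules. Some genes are not reported here.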

Additional observations from a re-analysis of the deposited data

Results flagged for a closer look

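Peaks of at least 3000 bp were also present on the mitochondrial chromosome, which the domains leave out. MGE held 1 of 4720 bp, LGE 1 of 4416 bp, CGE 1 of 3860 bp and CTX 2 of 4718 and 4969 bp. They are listed because they lie outside the chromosomes described above, and mitochondrial DNA carries no histones. No control library was used here to set a level against, and their origin was not tested.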

How the results depend on the processing

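Counts of broad domains scaled with the width limit. At 2500 bp there were 1090 domains, with 142, 767, 1013 and 170 broad peaks in MGE, LGE, CGE and CTX, 70 domains broad in all 4 lists, 501 in LGE and CGE only, 293 in CGE alone, 1069 coding genes, 85 forebrain factors, and 62.7% of domains covered at 50% or more in CTX. At 4000 bp these were 105 domains, 3, 52, 99 and 2 broad peaks, 1 broad in all 4, 45 in LGE and CGE only, 52 in CGE alone, 100 coding genes and 31 factors, with 40.0%, 100% and 41.9% of domains covered at 50% or more in MGE, CGE and CTX (60.2%, 99.4% and 56.3% at 3000 bp). Joining peaks less than 1 kb apart gave 127 and 151 broad peaks in MGE and CTX. It gave 77 domains broad in all 4 lists and 150 in LGE and CGE only. Of its domains, 70.8% and 67.4% were covered at 50% or more in MGE and CTX. The 500 widest peaks (500 in each of MGE, LGE and CTX by construction, down to 2011 bp in MGE) gave 1033 domains. Of these domains, 103 were broad in all 4 lists and 98 in CGE alone, and they held 1043 coding genes and 86 factors. The share covered at 50% or more was 75.6%, 97.3% and 75.4% in MGE, LGE and CTX. With broad peaks of 1 list as intervals, 90.2% of CTX peaks and 70.2% of LGE peaks were covered at 50% or more in MGE. In CTX this held for 91.9% of MGE peaks and 67.4% of LGE peaks. In LGE and in CGE it held for 100% of MGE and of CTX peaks. Of 105 values under alternatives, 56 stayed within 1.5 times (counts) or within the main value's 95% Wilson interval (shares) and 49 did not. A −log10 q of at least 2, autosomes only, other TSS rules and a 50% peak overlap moved none of the values computed under them beyond these margins. Counts still changed inside the margin of 1.5 times. With only the 5′ end of each gene counted, domains held 393 coding genes and 38 forebrain factors, against 481 and 54 with any TSS. No broad peak had a −log10 q below 2, so that limit could not change the counts of broad peaks, domains, genes or factors.

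No paired analysis was possible because each region has 1 list made from its replicates together, and no result comes from a test. Differences between lists carry no replicate error, and the number of libraries, the depth and the width of all peaks also differ between regions. The cause of the differences between lists was not tested. Leaving out a replicate was not run for the same reason.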
